A study of Mus musculus with 2 samples.

Results

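The adipocyte genes followed here were Adipoq, Retn, Lep, Cfd, Car3, Fabp4, Plin1, Cidec, Cidea and Ucp1, which are 10 of the 23232 genes and unnamed probes on the array. They were chosen by name, as genes known to be expressed by fat cells, but with earlier results of these data known. Each had 1 probe. The probe of Plin1 carried the older symbol Plin. Their expression was measured on 2 two-colour arrays, 1 for each of the αMHC/miR-143/145TG (TG) lines L9 and L19, against hearts of non-transgenic (NTG) mice. All mice were male and 3 months of age, and the lines had been made in B6D2F1 eggs and crossed back to C57BL/6 J. TG mice carry the human genes of miR-143 and miR-145 under the αMHC promoter, which is active in cardiomyocytes. Each array compared RNA of 1 TG mouse, labeled with Cy3, with NTG RNA labeled with Cy5, and the dyes were not swapped, so dye and genotype cannot be told apart. The NTG RNA carried the same label on both arrays and was therefore taken as 1 control sample, although how many NTG mice it came from is not settled by the sources used here. L9 and L19 were the 2 replicates of the transgene, and a difference between them can come from the line or from the mouse.

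Adipocytes store triacylglycerol in a large lipid droplet and release hormones into the blood. White adipocytes make adiponectin, leptin and, in mice, resistin, and brown adipocytes burn fat to produce heat. In the heart, adipocytes lie mainly in the fat around the organ, while several of the same genes are also expressed by other cardiac cells, such as Fabp4 by capillary endothelium. In heart RNA as a whole, fewer adipocytes and less RNA per adipocyte cannot be told apart.

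All 11 cardiomyocyte markers with a probe were above background in both channels of both arrays. A probe counted as above background when its signal exceeded the mean of the blank spots by more than 2 SD. Of the adipocyte genes, 8 of 10 met this in both channels of both arrays, Adipoq in all channels but L9 TG, and Lep in none. Ratios are TG over NTG, scaled so that the median probe of each array is at 1, and signals are given after subtraction of the blank mean, with TG signals scaled in the same way. Over all 17485 genes measured in all channels, the NTG readings on the L9 and the L19 array differed with an SD of 0.27 on the log2 scale. Among genes with NTG signals under 20 this SD was 0.36, against 0.17 among those with signals of 100 or more.

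The fold cutoff of 1.5 was applied to each line without a test. In L9, 5 adipocyte genes were under 1/1.5 of NTG, namely Car3, Cfd, Ucp1, Retn and Adipoq, and 0 were over 1.5-fold. Of all 20462 genes that had a signal over background somewhere on each array, 7.9% were under 1/1.5 in L9 and 11.6% were over 1.5-fold. In L19, 4 adipocyte genes were under 1/1.5, namely Adipoq, Retn, Car3 and Fabp4, and 0 were over 1.5-fold, with 8.15% of all genes under and 10.8% over. The median log2 ratio of the 8 genes measured in all channels was -0.54 in L9 and -0.38 in L19, beside -0.01 in each line over all genes. As a test over both lines, limma gave 0 adjusted calls, which is 0% of 17485 genes, so none of the 8 passed, although before adjustment 2745 genes with higher and 2521 with lower expression had p under 0.05. These counts and tests depended on the background correction. After normexp with local background 1 gene was under 1/1.5 in L9 and 0 in L19, beside 0.246% and 0.274% of all genes. After normexp on spot signals alone, an alternative chosen after seeing the data, 2 and 0 were, beside 0.405% and 0.445%. With that correction limma called Car3, Retn, Ucp1 and Plin1 lower, beside 13.1% of all genes, and Cidea and Cidec higher, beside 30.4%. By their labels the L9 and L19 ratios share their NTG RNA, so likeness between the lines is not independent evidence.

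**Figure D1:**
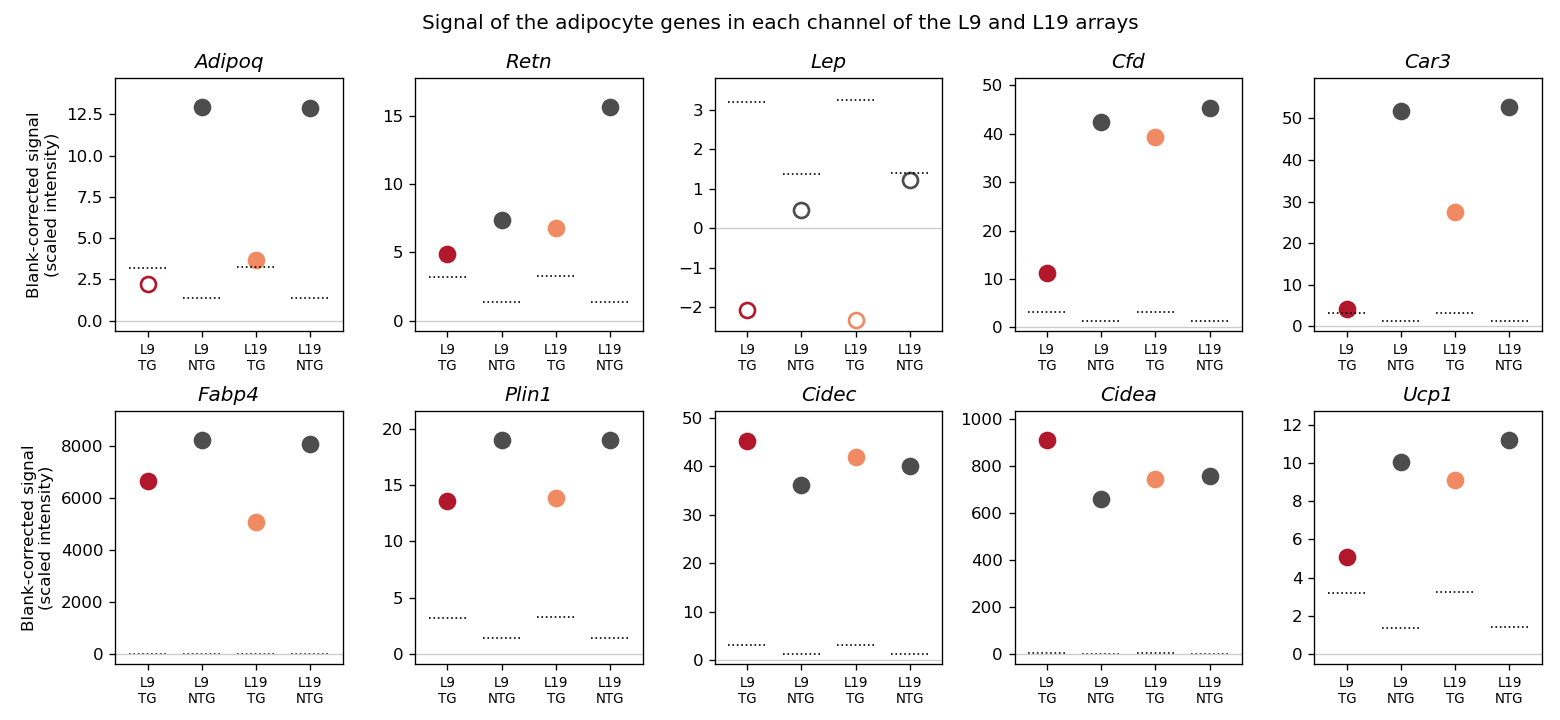
Blank-corrected signal of each adipocyte gene in the TG and NTG channels of the L9 and L19 arrays, with TG signals scaled to a median ratio of 1. Each point is 1 channel, dotted lines are detection limits, open points are not above background, and panels have their own axes. Car3 had TG signals of 4.11 in L9 and 27.4 in L19, against NTG signals of 51.8 and 52.7.

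Upstream sequences are shown for the secreted-protein genes Adipoq, Retn and Cfd, since Adipoq and Retn were under 1/1.5 in each line and Cfd in L9 alone. RefSeq promoters of build GRCm38.p6 were matched for 7 of the 10 genes, and those of Car3, Fabp4 and Cidea were not used here. The 250 bases before the gene start are given 5′ to 3′ on the plus strand, from chr16:23146286-23146535 for Adipoq, chr8:3655520-3655769 for Retn and chr10:79890603-79890852 for Cfd. Capitals mark matches to CCAAT on either strand.
Adipoq: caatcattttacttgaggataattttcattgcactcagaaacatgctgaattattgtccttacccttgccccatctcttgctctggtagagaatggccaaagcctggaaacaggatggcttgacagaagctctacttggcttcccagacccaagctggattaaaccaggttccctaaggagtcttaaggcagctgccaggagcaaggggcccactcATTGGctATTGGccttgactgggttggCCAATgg
Retn: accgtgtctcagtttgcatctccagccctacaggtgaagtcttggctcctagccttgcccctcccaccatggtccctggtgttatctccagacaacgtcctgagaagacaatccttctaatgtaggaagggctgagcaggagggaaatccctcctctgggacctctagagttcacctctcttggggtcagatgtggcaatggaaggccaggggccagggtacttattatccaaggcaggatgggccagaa
Cfd: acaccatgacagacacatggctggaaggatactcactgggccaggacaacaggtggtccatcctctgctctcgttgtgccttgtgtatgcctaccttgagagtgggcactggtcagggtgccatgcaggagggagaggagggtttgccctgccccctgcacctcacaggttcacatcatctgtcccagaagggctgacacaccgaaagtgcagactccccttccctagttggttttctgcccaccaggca
The motifs searched on both strands were CCAAT, which occurred in 33.8% of all 32851 promoter windows of this length, the TATA box as TATAAA (12.4%), the nuclear receptor half-site AGGTCA (14%) and the C/EBP core TTGCNNAA (9.56%). Adipoq held 3 matches to CCAAT, which began 34, 27 and 7 bases before the start, and no matches to any of the 4 motifs were in the windows of Retn and Cfd. Elsewhere among the members, Plin1 held 2 matches to TTGCNNAA, at 187 and 58 bases, Lep held 1 at 55 bases and 1 of the 2 Cidec windows held 1 at 198 bases. Ucp1 held AGGTCA at 14 bases. No match overlapped another, and a match is a description of letters and not a binding site.

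Among the secreted products, Adipoq, which encodes adiponectin, was low in both TG hearts. Its signal was 2.25 in L9 TG, which was not above background, against 12.9 in NTG on that array. In L19 it was 3.70 in TG and 12.9 in NTG. The NTG readings were thus alike on both arrays, and both TG readings were lower. The blank spots were noisier in the TG channel, and a signal above background in NTG alone was common, with 2545 such probes in L9. The L9 reading put expression at least 4.05-fold lower, a bound set by the dimmest probe above background. That bound makes no allowance for noise in either channel. In L19 expression was at 28.7% of NTG, a log2 ratio of -1.80. As L9 gave only a bound, Adipoq was not tested. The L19 TG spot lay 2.28 SD above the blank spots. When both channels were moved by 2 SD of the blank spots, called the blank range from here on, its log2 ratio ran between -4.95 and -0.73. The blank range holds the noise of blank spots alone, and not differences between hybridizations or mice. Under a detection limit of 3 SD Adipoq had no ratio in either line.

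Retn, which encodes resistin, had signals of 4.87 in L9 TG against 7.39 in NTG, and of 6.81 in L19 TG against 15.6 in NTG. TG was lower than NTG on each array, but the NTG readings of the 2 arrays differed 2.12-fold. Of the genes with NTG signals under 20, 2.47% differed by more than 2-fold between these readings. The log2 ratio was -0.60 in L9, with a blank range of -2.39 to 0.42, and -1.20 in L19, with a range of -2.25 to -0.50. The mean was -0.90 ± 0.42 (SD, n = 2 lines, limma adjusted p = 0.104).

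Cfd, which encodes the complement protease factor D, also called adipsin, differed between the lines. Its signal was 11.3 in L9 TG and 42.5 in NTG on that array, and 39.3 in L19 TG and 45.4 in NTG. L9 TG alone was low, and the other readings lay between 39.3 and 45.4. Cfd was at 26.6% of NTG in L9 and at 86.6% in L19, with log2 ratios of -1.91 and -0.21 and blank ranges of -2.43 to -1.50 and -0.37 to -0.05. The mean was -1.06 ± 1.20 (SD, n = 2 lines, limma adjusted p = 0.221).

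Lep, which encodes leptin, was not above background in any channel. Relative to the blank mean its spots lay at -1.30 SD in L9 TG and 0.69 SD in L9 NTG, and at -1.44 SD in L19 TG and 1.76 SD in L19 NTG. No ratio was formed, so neither a change nor its absence could be read at this signal.

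Car3, a carbonic anhydrase abundant in fat, liver and slow muscle, had the lowest ratio of the 8 genes in L9. Its signal was 4.11 in L9 TG and 51.8 in NTG on that array, and 27.4 in L19 TG and 52.7 in NTG. Both TG signals lay below both NTG signals, and the NTG readings differed 1.02-fold. Car3 was at 7.94% of NTG in L9 and at 52.1% in L19, with log2 ratios of -3.66 and -0.94. The L9 TG spot lay 2.57 SD above the blank spots, so the size of the L9 ratio is loosely fixed, with a blank range of -5.86 to -2.79, against -1.16 to -0.74 in L19. The mean was -2.30 ± 1.92 (SD, n = 2 lines, limma adjusted p = 0.149). Under a detection limit of 3 SD Car3 had no ratio in L9.

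Fabp4, the fatty acid-binding protein of adipocytes and capillary endothelium, had signals of 6647 in L9 TG against 8228 in NTG, and of 5055 in L19 TG against 8089 in NTG. Both TG signals lay below both NTG signals, which differed 0.983-fold between the L19 and the L9 array. Fabp4 was at 80.8% of NTG in L9 and at 62.5% in L19, with log2 ratios of -0.31 and -0.68. The mean was -0.49 ± 0.26 (SD, n = 2 lines, limma adjusted p = 0.140). When limma's spread was instead modelled by signal with outliers downweighted, Fabp4 alone of the 8 passed (limma adjusted p = 0.0209), where 9.25% of all genes were called lower. After normexp background correction Fabp4 was at 0.19 in L9 and -0.16 in L19, so its direction in L9 depends on that correction. The 12 capillary endothelium markers had median log2 ratios of -0.33 in L9 and -0.29 in L19, and their part in the Fabp4 result was not tested.

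Of the genes of the lipid droplet, Plin1, which encodes the perilipin that coats the droplet of adipocytes, had signals of 13.6 in L9 TG and 13.8 in L19 TG, against 19.0 in NTG on both arrays. Both TG signals lay below NTG by the same step, at 71.5% in L9 and 72.8% in L19. The log2 ratios were -0.48 and -0.46, and the mean was -0.47 ± 0.02 (SD, n = 2 lines, limma adjusted p = 0.111). The blank range was -0.97 to -0.07 in L9 and -0.95 to -0.05 in L19, far wider than the spread of the lines.

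Cidec, which encodes a protein that helps lipid droplets to fuse, had signals of 45.4 in L9 TG against 36.3 in NTG, and of 42.0 in L19 TG against 40.1 in NTG. The TG signals lay above NTG, by little in L19. The log2 ratios were 0.32 and 0.06, with a mean of 0.19 ± 0.18 (SD, n = 2 lines, limma adjusted p = 0.366). Plin1 and Cidec, both proteins of the lipid droplet, thus had ratios on opposite sides of NTG, neither of which passed the test.

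Cidea, a related protein of brown fat, had signals of 909 in L9 TG against 659 in NTG, and of 746 in L19 TG against 755 in NTG. L9 TG alone stood above the other readings. The log2 ratios were 0.46 and -0.02, with a mean of 0.22 ± 0.34 (SD, n = 2 lines, limma adjusted p = 0.415). At the L19 spot the local background in the NTG channel read 782, above the spot itself at 774, so that subtracting the local background would leave no signal at this spot. The same background was 260 on the L9 array, where the spot was at 679.

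Ucp1, the uncoupling protein that lets brown adipocytes make heat, had signals of 5.07 in L9 TG against 10.1 in NTG, and of 9.10 in L19 TG against 11.2 in NTG. Both TG signals lay below both NTG signals. Ucp1 was at 50.2% of NTG in L9 and at 81.1% in L19, with log2 ratios of -0.99 and -0.30. Both blank ranges were wide, from -2.61 to -0.08 in L9 and from -1.10 to 0.33 in L19, and the mean was -0.65 ± 0.49 (SD, n = 2 lines, limma adjusted p = 0.155).

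**Figure D2:**
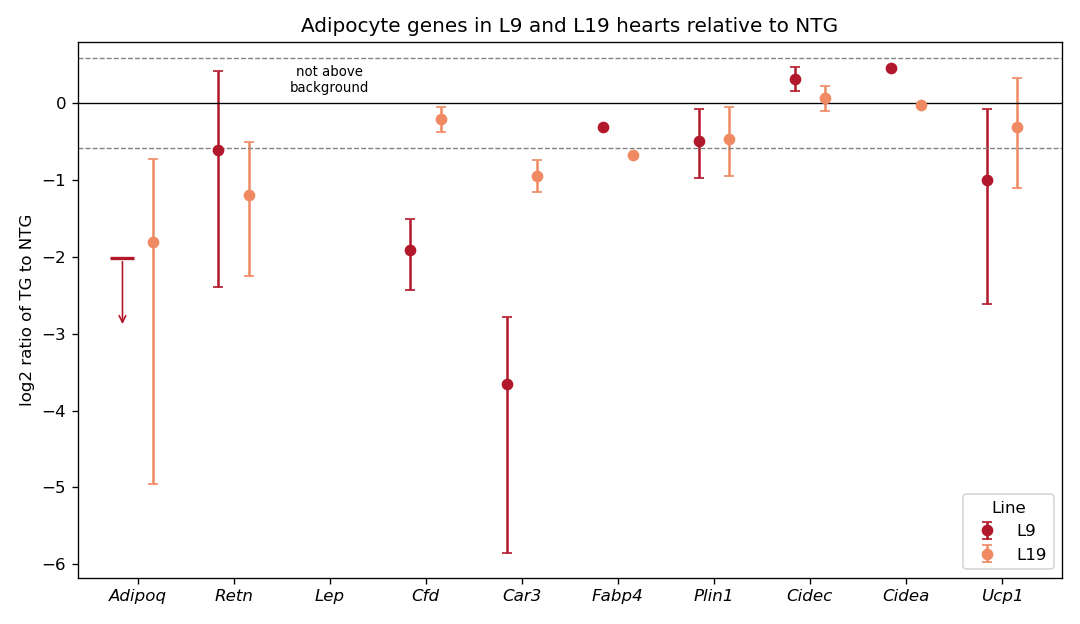
Log2 ratio of TG to NTG for each adipocyte gene, in L9 and in L19, with dashed lines at the 1.5-fold cutoff in each direction. Bars are the blank range, the span when both channels are moved by 2 SD of the blank spots, and the arrow marks the upper bound of Adipoq in L9. Car3 at -3.66 and Cfd at -1.91 in L9 lay below their L19 ranges, which leave out differences between hybridizations and mice.

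The lines were then set against each other, as the difference of their log2 ratios. If the NTG RNA was the same, as labeled, it cancels here apart from its reading error. L9 was under 1/1.5 of L19 for 3 of the 8 genes, Car3, Cfd and Ucp1, beside 6.27% of all genes measured in all channels. That share was 12.4% among genes with NTG signals under 20, such as Ucp1. It was 3.27% among those with signals of 20 to 100, such as Car3 and Cfd. L9 was over 1.5-fold of L19 for 1 gene, Retn, beside 7.13% of all genes. With 1 mouse a line there is no test of this difference. The log2 difference of L9 and L19 was -2.71 for Car3, which held place 2 of 17485 from the low end, and -1.70 for Cfd, which held place 25. In linear terms the ratio was 6.56-fold lower in L9 than in L19 for Car3 and 3.25-fold lower for Cfd. The blank range of the difference was -5.12 to -1.63 for Car3 and -2.39 to -1.13 for Cfd. Both ranges lay below the cutoff, but they leave out differences between hybridizations and mice. They are therefore not error intervals of the difference. The TG signals alone gave -2.74 for Car3 and -1.80 for Cfd, and the NTG readings -0.02 and -0.10, so these differences lay in the TG channels. The size of these differences depended on the background correction. Normexp with an offset of 50 and local background gave -0.57 for Car3 and -0.43 for Cfd, neither of which was under 1/1.5. Without local background the values were -0.75 and -0.70.

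For the other genes the difference was smaller. It was -0.69 for Ucp1 and 0.60 for Retn, with blank ranges that crossed 0, and the NTG readings of Retn alone differed by -1.08. It was 0.48 for Cidea, 0.37 for Fabp4, 0.26 for Cidec and -0.03 for Plin1. Ordered from the low end, Car3 and Cfd came first and Retn last, and the blank ranges of Ucp1, Plin1, Cidec and Retn overlapped one another.

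**Figure D3:**
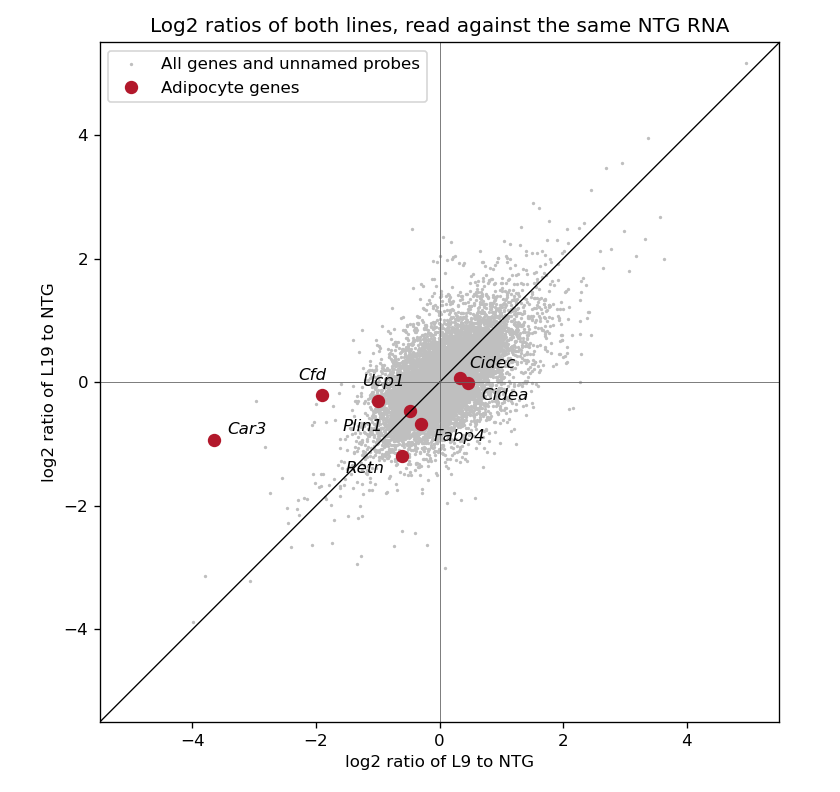
Log2 ratio of L9 to NTG against that of L19 to NTG for 17485 genes and unnamed probes measured in all channels (grey) and the 8 adipocyte genes among them (red), with the line of equal ratios. Both axes use NTG RNA of the same label, and Car3 and Cfd lay far to the left of that line.

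The named genes with the lowest difference of L9 and L19 also included Fkbp5 and Slc10a6. Fkbp5, a glucocorticoid-responsive chaperone gene, had log2 ratios of 0.06 for L9 and 2.35 for L19, and Slc10a6 of 0.19 and 2.27, so their differences of -2.30 and -2.08 came with a high L19 ratio. Those of Car3 and Cfd came with a low L9 ratio. At the other end Acta1, an actin gene, was at -0.20 for L9 and -2.64 for L19, and Cx3cr1, a receptor of macrophages, at 0.35 and -1.90. The L19 TG signal of Cx3cr1, 3.48, was close to the detection limit. The pair of ratios nearest that of Car3, by Euclidean distance over the 2 lines, belonged to Phkg1 at -2.82 and -1.05, followed by Urah at -2.75 and -1.79 and Ctf1 at -2.54 and -1.55. These 3 lay 0.84, 1.25 and 1.27 from Car3 on the log2 scale. Nearest to Cfd were Gpr160 at -1.73 and -0.38 and Dab2ip at -1.63 and -0.18. The L9 TG spots of Urah and Dab2ip lay 2.07 and 2.01 SD above the blank spots, so their L9 ratios are loosely fixed.

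Other genes of adipocytes were taken from lists made by name, also with earlier results of these data known. Of the transcription factors of adipocytes, 3 of 9 were under 1/1.5 in L9 and 1 of 9 in L19, while 0 in L9 and 1 in L19 were over 1.5-fold. Over all genes, 7.9% were under in L9 and 8.15% in L19, and 11.6% and 10.8% were over. Pparg, the main regulator of fat cell formation, was at 0.28 and 0.20. Rxra, its partner, had log2 ratios of -0.91 in L9 and -0.93 in L19. L9 was under 1/1.5 of L19 for 2 of the 9 and over 1.5-fold for 0, beside 6.27% and 7.13% of all genes. The 2 were Klf15, at -0.67 in L9 and 0.66 in L19, and Cebpb, at -0.80 and 0.47. Both were named with their values already seen. Of 20 further adipocyte genes above background, 4 were under 1/1.5 in L9 and 3 in L19, and 0 and 1 were over 1.5-fold. Their median log2 ratio was -0.26 in L9 and -0.23 in L19 over the 16 measured in all channels. The lowest of them was Apln, a peptide hormone gene, at -1.34 and -2.93. Its L19 TG signal of 3.92 was close to the detection limit, so the size of its L19 ratio is loosely fixed. Lgals12, a galectin of the fat cell's lipid droplet, was at -0.72 and -0.75. Npr3 went the other way, at 0.41 and 0.87. None of these genes passed the limma test over all genes.

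Genes of lipid handling, many of which heart muscle expresses itself, were counted in the same way. The shares over all genes were 7.9% under and 11.6% over in L9, and 8.15% and 10.8% in L19. Of 13 genes of the lipid droplet and lipolysis, 4 were under 1/1.5 in L9 and 2 in L19, and 0 were over 1.5-fold in either line. Fitm1, which helps form lipid droplets in muscle, was at -1.59 and -1.28, and Plin5, the perilipin of oxidative tissue, at -0.71 and -0.55. Of 22 genes of fatty acid and triacylglycerol synthesis, 6 were under 1/1.5 in L9 and 8 in L19, and 1 and 2 were over 1.5-fold. Dgat2, an enzyme of the last step of triacylglycerol synthesis, was at -1.51 and -1.10. Of 10 PPAR alpha targets, 5 were under 1/1.5 in L9 and 4 in L19, and 0 over 1.5-fold in either, with Fabp3, the cardiac relative of Fabp4, at -1.26 and -1.65.

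No other carbonic anhydrase measured in all channels was as low as Car3 in either line. Of 12 other carbonic anhydrases above background, 2 were under 1/1.5 and 2 over 1.5-fold in L9, and 1 and 4 in L19. Over all genes, 7.9% were under and 11.6% over in L9, and 8.15% and 10.8% in L19. The log2 ratio of Car2 was 0.94 in L9 and 0.91 in L19, and that of Car14, the lowest of those measured in all channels by mean, was -0.88 and -0.20. Of 15 further genes of brown fat, 5 were under 1/1.5 in L9 and 4 in L19, among them Kcnk3 at -0.82 and -0.94. In each line 1 was over 1.5-fold, in L9 Prdm16, a regulator of brown fat, at 0.68 and in L19 Ppargc1a, a coactivator of mitochondrial genes, at 0.94. Both were named after their values were seen, and in the other line Prdm16 was at 0.09 and Ppargc1a at 0.11.

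Markers of other cells were counted in the same way. Shares over all genes were again 7.9% under and 11.6% over in L9, and 8.15% and 10.8% in L19. Of 11 cardiomyocyte markers, 5 were under 1/1.5 in L9 and 3 in L19, and 1 and 2 were over 1.5-fold, among them Nppa, a natriuretic peptide gene, at 3.32 and 2.31. Their median was -0.49 and -0.38, close to the medians of the adipocyte genes. Of 12 fibroblast markers, 10 were over 1.5-fold in L9 and 6 in L19, and 0 were under 1/1.5 in either, with a median of 0.88 and 0.55, and their summed signal was 12330 in L9 TG against 7007 in NTG, and 13754 in L19 TG against 8834 in NTG. For 10 macrophage markers the median was 0.20 in L9 TG, but -0.50 in L19 TG. Of 11 skeletal muscle markers with a probe, 9 had a signal over background somewhere on each array. Of these, 2 were under 1/1.5 in L9 and 3 in L19, and 1 and 0 were over 1.5-fold. The summed signal of the 7 measured in all channels was 2424 in L9 TG against 1904 in NTG, and 700 in L19 TG against 2127 in NTG. Most of each sum came from Acta1 and Myl1, which went opposite ways in L9. Acta1 had signals of 1110 in L9 TG against 1273 in NTG, and of 219 in L19 TG against 1364 in NTG. Those of Myl1 were 1233.5 against 535 in L9, and 387 against 654 in L19. The median log2 ratio of the 7 was 0.18 in L9 and -0.10 in L19. The part of any of these cells in the adipocyte gene ratios was not tested.

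**Figure D4:**
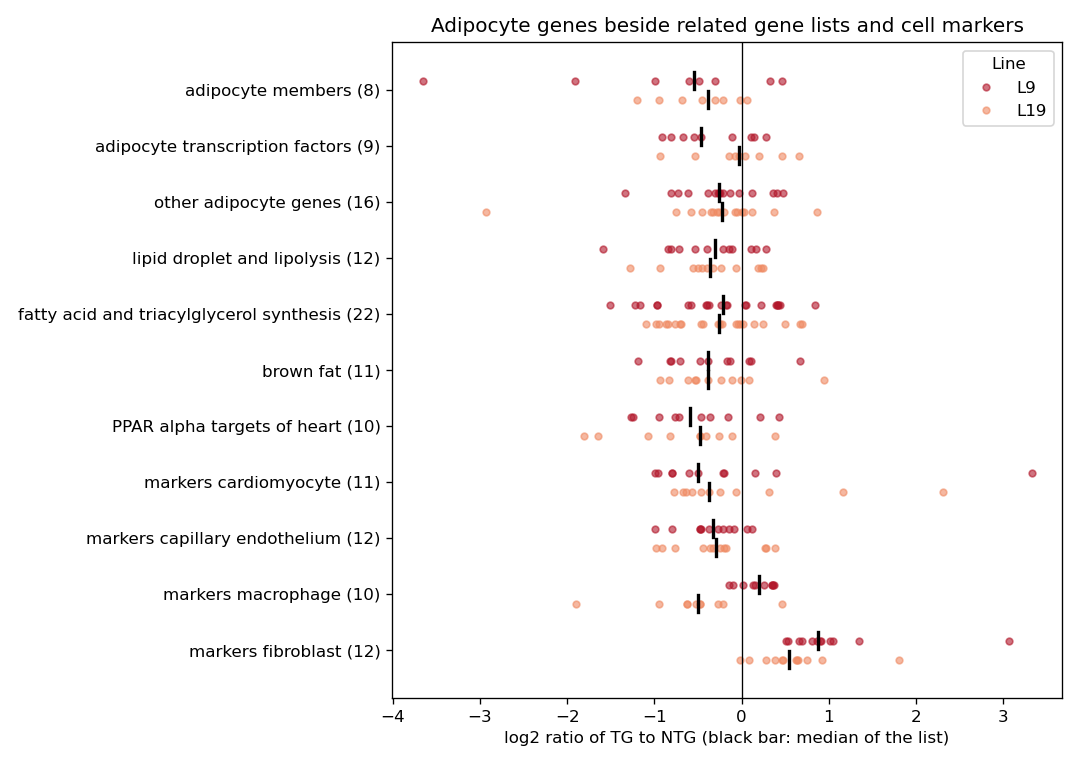
Log2 ratio of TG to NTG of each gene measured in all channels, for the adipocyte genes (adipocyte members, top) and other lists, in L9 and in L19. The number of genes is in parentheses and black bars are medians, which were -0.54 in L9 and -0.38 in L19 for the adipocyte genes and 0.88 and 0.55 for fibroblast markers.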

How the data were processed

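Two-colour Toray 3D-Gene Mouse Oligo chip 24 arrays were used, 1 for L9 and 1 for L19. The scanner files deposited by the authors give uncorrected spot intensity for both dyes. The authors also deposited log2 ratios of TG over NTG, which were recovered from the intensities: within 0.001 for 18440 of 18441 probes in L9 and 18823 of 18824 in L19. Background was the mean over 2736 blank spots per channel, trimmed by 5% at each end and subtracted (85.2 for TG and 19.1 for NTG in L9, 72.6 and 19.1 in L19). Probes above that mean plus 2 SD were kept, flagged spots left out and ratios scaled to a median of 1. Genes with several probes were represented by the brightest. The number of arrays limits the precision.

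Platform symbols were updated through RefSeq (12622 current, 3947 updated, 62 kept), and 6842 probes had none. The mean log2 ratio of L9 and L19 was tested against 0 in limma 3.58.1 (lmFit, eBayes, Benjamini-Hochberg) in R 4.3.3. The code was run on simulated ratios drawn independently for each array. Those lack the shared NTG RNA and the fixed dyes, so they do not check the p-values for this design. Tables were made with Python 3.11.15, numpy 2.4.6 and pandas 2.3.3. The members and lists were chosen with earlier results of these data known. Named were the 10 members, up to 4 genes a list by size of mean ratio, genes at the ends of the L9 and L19 difference and those nearest a member. Prdm16, Ppargc1a, Klf15, Cebpb and Myl1 were named after their values were seen.

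Alternatives were normexp with an offset of 50 on spot and local background signals, loess, the deposited log2 ratios, the upper 50% of signal, a limit of 3 SD, each probe apart, trend with robust estimation, a fold cutoff of 2 and each line left out. Normexp on the spot signals alone and the blank mean of each print block were chosen after seeing the data.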

Additional observations from a re-analysis of the deposited data

Results flagged for a closer look

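Cidea lay above NTG in L9, with a log2 ratio of 0.46, and marginally below it in L19, at -0.02. The lines were on opposite sides of NTG, by a difference of 0.48, and with 1 mouse a line this difference was not tested. The opposite sides rest on an L19 value near 0. After normexp on spot signals alone Cidea was above NTG in both lines, at 0.92 in L9 and 0.41 in L19, and after normexp with local background at 0.74 and 2.63, where the difference was -1.89.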

How the results depend on the processing

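The number of genes that limma called, 0, was the same with loess, the deposited log2 ratios, each probe apart and the blank mean of each print block. It was 60 with a limit of 3 SD, 2493 in the upper 50% of signal, 3411 with trend and robust estimation, 3365 with normexp on spot and local background signals, and 7612 with normexp on spot signals alone, which was chosen after seeing the data. The number of adipocyte genes under 1/1.5 was 5 in L9, 4 in L19 and 3 for L9 against L19. With loess, the deposited ratios and block-wise blank means Adipoq left the L9 count, since no bound was formed there, and with loess Fabp4 left that of L19. With normexp on spot and local background it was 1 (Car3), 0 and 1, and that last gene was Cidea, whose L19 spot had a high local background. With normexp on spot signals alone it was 2 (Car3 and Cfd) in L9 and 0 in L19, and Car3 and Cfd remained for L9 against L19. In the upper 50% of signal, which holds 3 of the members, it was 0, 1 (Fabp4) and 0. It was 3 in L9 with a limit of 3 SD, where Car3 and Adipoq drop out of L9 and Adipoq out of L19 as well, and with a fold cutoff of 2 it was 3 in L9 and 2 in L19. Shares over all genes were formed only for the main setting and both normexp settings. The counts at the other settings therefore have no background to be judged against.

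The mean log2 ratio changed sign with normexp on spot and local background for Retn (0.014) and Fabp4 (0.013). With 1 line left out, that of Cidea lay between -0.017 (without L9) and 0.46 (without L19). The cause was not tested. The mean of Car3, -2.30, was -0.32 with that normexp and -0.74 with spot signals alone (limma adjusted p = 0.0085). There Retn, Ucp1 and Plin1 also passed as lower and Cidea (0.66) and Cidec (0.20) as higher, among 2289 genes called lower and 5323 called higher of 17485. Cidea also passed with local background (adjusted p = 0.0328), and Fabp4 passed in the upper 50% of signal (adjusted p = 0.0426) and with trend and robust estimation. The L9 and L19 difference of Car3, -2.71, was -0.57 with local background and -0.75 with spot signals alone, and that of Cfd, -1.70, was -0.43 and -0.70. Dim spots limit Adipoq, Retn, Ucp1 and Car3 in L9. TG and NTG were paired by array in the log2 ratios that limma tested, and no fit with a further replicate block was made, since the labels give no replicate numbers.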
